A study of Mus musculus with 2 samples.

Results

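In XX fetal germ cells, a small set of genes was higher after 24 h of gonad culture than at 0 h, and lower again at 72 h. In XY germ cells their 24 h level was under 2 times the 0 h level plus 1. They were chosen from group means of counts per 1000000 counts of the library (CPM). A gene was taken if its XX 24 h mean was at least 20 CPM and at least 2 times both the XX 0 h mean plus 1 and the XX 72 h mean plus 1, and if its XY 24 h mean was under 2 times the XY 0 h mean plus 1. Symbols starting with Slc were to be left out, but none reached that step. Of 42422 genes in the table, 7840 met the floor of 20 CPM, 333 of these also met the condition against XX 0 h, 32 the condition against XX 72 h, and 22 the condition on XY cells. In 9 of these 22 the XY 24 h mean was still at least 1.5 times the XY 0 h mean plus 1. The 22 genes, all protein coding, were Piwil4, Raet1e, Ccnd1, Fads2, Cspg5, Nsdhl, Jag2, Pmvk, Mvd, Cdkn2d, Enpp5, Fdps, Fam217b, Entrep3, Arhgdig, Fsd1, Acsl4, Mvk, Ccnjl, Tmem205, Zfp820 and Pnck, in falling order of the ratio of the XX 24 h mean to the larger of the means at the other XX times, each plus 1. The 72 h libraries were sequenced in another pool than the 0 h and the 24 h DMSO libraries, so that in XX cells the difference between 24 h and 72 h and the change of pool cannot be told apart.

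The embryos came from Swiss females crossed with 129T2svJ males that carried the Oct4-eGFP transgene, in which the Oct4 promoter drives GFP in germ cells. Gonads with mesonephros were taken at E12.5 and either used at once (0 h) or cultured for 24 h or 72 h with the solvent DMSO, with BGJ398, which blocks FGF receptors (FGFRi, 500 nM), or with PD0325901, which blocks MEK (MEKi, 500 nM). XX gonads were cultured with DMSO, whereas XY gonads were given each of the 3 treatments. GFP-positive cells sorted from pooled gonads gave 4 libraries in each of 10 groups, 40 in all. Because a library was made from pooled cells, fewer cells that express a gene and less RNA per cell cannot be told apart.

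XX germ cells of this stage leave mitosis and enter meiosis under signals that include retinoic acid and BMP. XY germ cells instead stop dividing and leave the cell cycle (mitotic arrest), and start the male programme. Cells make cholesterol from acetyl-CoA through the mevalonate pathway, whose enzymes are induced together by SREBP transcription factors when membrane sterol is low, with NF-Y bound at nearby CCAAT boxes as a common partner. D-type cyclins activate the kinases that carry a cell out of G1, and INK4 proteins inhibit those kinases.

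The libraries held 1178953 to 5199153 counts, with a median of 2135128.5. The germ cell marker list took a median of 0.219% to 0.464% of the counts of a group, and 0.287% in XX 24 h DMSO. Each of the 8 lists of somatic, blood and mesonephric markers had a group median of at most 0.0259%, reached by the blood list in XY 24 h MEKi. In XX 24 h DMSO the largest of these medians was that of the endothelial list, at 0.01%, and 1 of its 7 genes, Pecam1, carried it, with a mean of 90.3 CPM, while each of the other 6 was under 1 CPM. In XX cells none of the 8 lists had its highest median at 24 h. A feature of the pools may bear on the 24 h values. Each XX 24 h DMSO library carried the same sample index as 1 XY 72 h FGFRi library of the other pool, and 4 Y-linked genes had 88 counts in the 4 XX 24 h libraries (21 at XX 0 h, where the index is shared with XX cells), at 3.279% to 5.422% of their counts in the partner libraries. The share of each gene's counts that this could give, if the index were the source, is set out after the values.

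The members' levels by library in the DMSO and 0 h groups show 21 genes whose lowest XX 24 h library lay above the highest XX 0 h library (18.4% of the 7840 genes that met the floor did), and 22 whose lowest XX 24 h library lay above the highest XX 72 h library (34.1%). The exception against 0 h was Zfp820, a zinc finger gene. These contrasts chose the genes, so the counts are a description without a test and nothing is read from them. In 13 of the 22 the XX 24 h libraries also lay above every XY 24 h DMSO library (22.5% of the genes that met the floor), a group that entered the choice through the ceiling on its rise. In the other 9 (Piwil4, Fads2, Mvd, Fdps, Fam217b, Fsd1, Mvk, Tmem205 and Zfp820) the sexes overlapped at 24 h, and in Mvd, Fsd1 and Mvk the XX 24 h mean was below the XY 24 h mean plus 1.

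**Figure D1:**
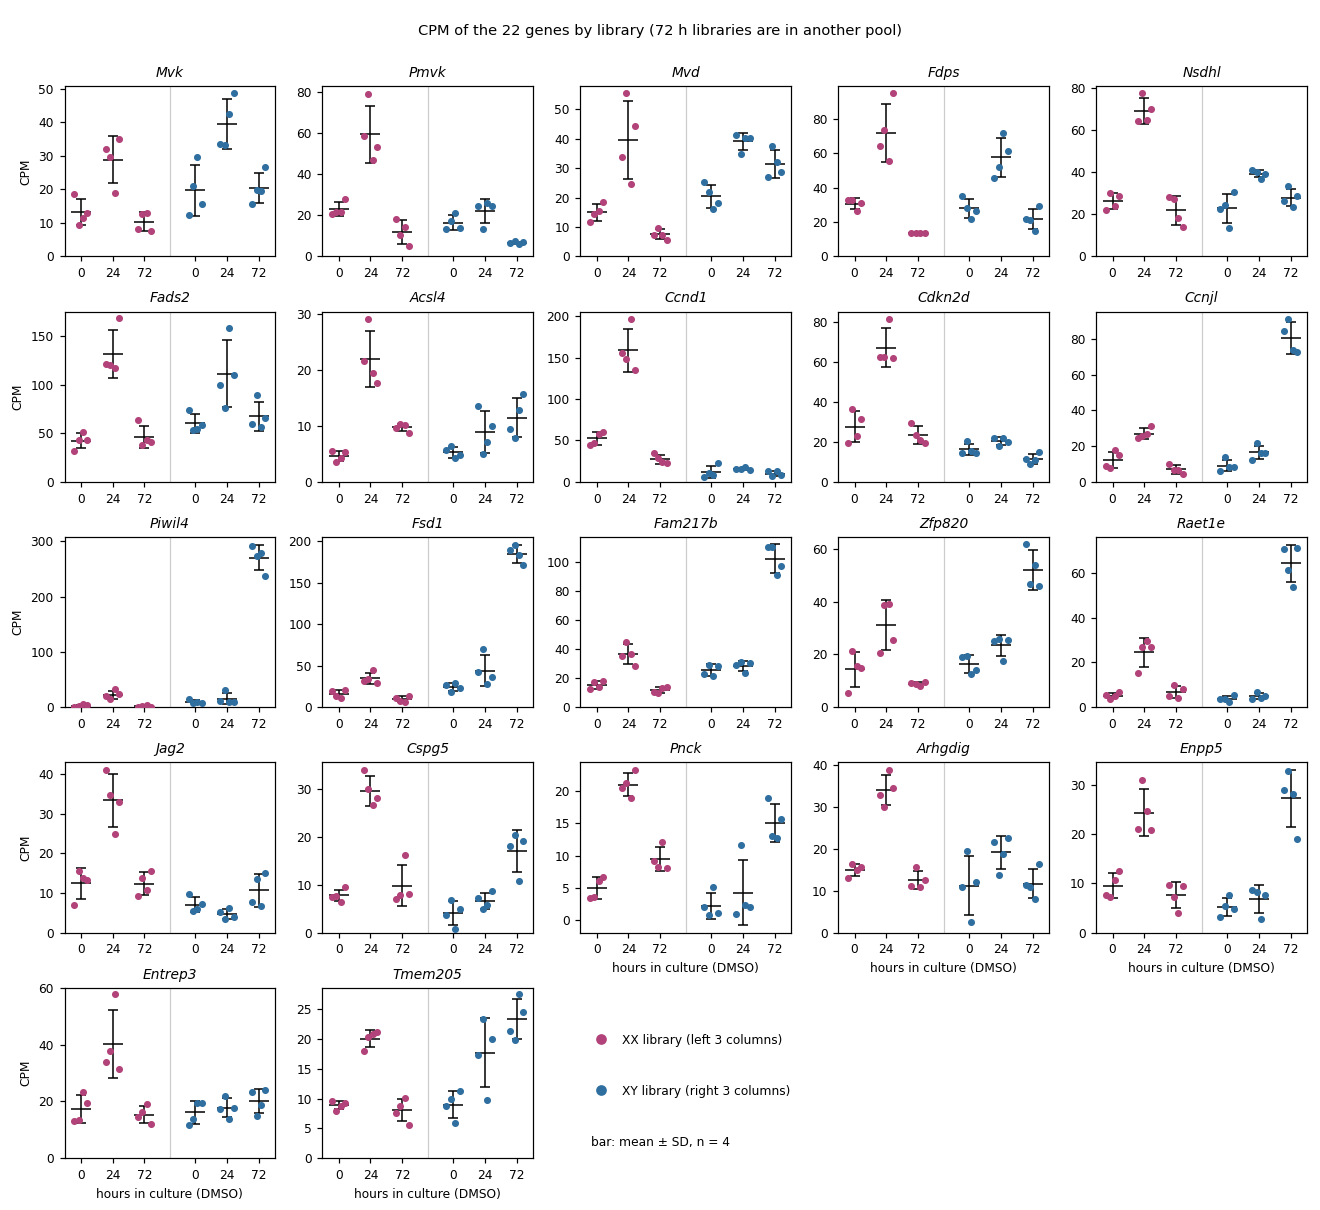
CPM of each of the 22 genes (y axis, CPM, linear, own scale per panel) against hours in culture in XX and XY germ cells, 1 point a library, with the mean and SD of 4 libraries. The 24 h column is the highest of the XX columns in every panel, and in Piwil4, Fsd1, Fam217b, Zfp820, Raet1e and Ccnjl every XY 72 h library lies above every XX 24 h library.

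Enzymes of sterol synthesis, a grouping made after the genes were seen, accounted for 5 of the 22 genes, of which Nsdhl and Pmvk stayed in the set under every removal of index-tied counts tried. Mvk, Pmvk and Mvd encode the consecutive steps that turn mevalonate into isopentenyl diphosphate, Fdps joins such units into farnesyl diphosphate, and Nsdhl acts late, when methyl groups are taken off the sterol ring. Their XX levels at 24 h were 2.04 to 2.54 times the 0 h level plus 1, and 2.55 to 4.91 times the 72 h level plus 1.

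Nsdhl (ENSMUSG00000031349, chrX:71961712-72002129 in GRCm39), an X-linked gene, stood at 22, 24.1, 28.7 and 30.1 CPM in the XX 0 h libraries, at 64.2, 64.5, 69.8 and 77.6 CPM at 24 h, and at 13.8, 18.3, 27.4 and 28.1 CPM at 72 h. In XY 24 h DMSO its libraries lay between 37 and 40.9 CPM, below every XX 24 h library. Pmvk (ENSMUSG00000027952, chr3:89361758-89376323) stood at 20.6, 21.4, 21.8 and 27.8 CPM at 0 h, at 47.1, 53.4, 58.4 and 79.0 CPM at 24 h, and at 5.01, 10.3, 14.2 and 18.4 CPM at 72 h in XX cells. For Pmvk too the XX 24 h libraries were all higher than the XY 24 h DMSO libraries, which had 13.2 to 25.8 CPM. Of the 5 sterol genes in the set, Nsdhl and Pmvk were those whose XX and XY libraries did not overlap at 24 h with DMSO.

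Fdps (ENSMUSG00000059743, chr3:89000888-89019213) stood at 26.4, 30.9, 33.0 and 33.0 CPM in XX 0 h, at 55.8, 64.2, 73.4 and 95.1 CPM in XX 24 h, and at 13.6, 13.7, 13.8 and 13.8 CPM in XX 72 h. Mvd (ENSMUSG00000006517, chr8:123160336-123170324) stood at 11.7, 14.5, 15.3 and 18.6 CPM, then at 24.7, 33.7, 44.5 and 55.4 CPM, then at 5.63, 7.14, 7.46 and 9.77 CPM in the same groups. Both genes kept the XX groups apart, yet neither kept the sexes apart at 24 h. In XY 24 h DMSO, Fdps had 45.7 to 71.9 CPM and Mvd 34.7 to 41.3 CPM. Mvk (ENSMUSG00000041939, chr5:114582267-114601803), at 28.9 ± 6.98 CPM (SD, n = 4) in XX 24 h, had 39.5 ± 7.43 CPM (SD, n = 4) in XY 24 h. These 3 genes sat closest under the ceiling on XY cells: their XY 24 h means were 1.996 times (Fdps), 1.906 times (Mvk) and 1.826 times (Mvd) the XY 0 h mean plus 1. The margin in XY cells was thus narrowest for Fdps, and none of the 3 had a level XY course. Mvd met the rule whichever library was left out. Mvk was also near the limit against XX 0 h, at 2.042 times.

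A list of 20 enzymes of the pathway, drawn up after the 22 genes were seen, places these 5 among their neighbours and is given without a test. The rule fixed the XX course of the 5, so the counts below are for the 15 enzymes not in the set. Measured against the means plus 1, their XX 24 h mean was higher than that at 0 h for 13 of the 15 and higher than that at 72 h for 15. The median ratio was 1.628 against XX 0 h and 3.116 against XX 72 h, where the 7840 genes with at least 20 CPM had medians of 1.005 and 1.089. In XY cells the median ratio of 24 h to 0 h was 1.597, against 0.9761 over those genes. Because the list was made with the results known, these values are a description and support nothing further. Of these 15, Hsd17b7 was kept out by its XY ratio of 2.23, Lss by a ratio of 1.986 against XX 72 h, and Acat2 by a ratio of 1.228 against XX 72 h. Hmgcs1, which acts ahead of mevalonate, had an XX ratio of 1.12 against 0 h and of 3.227 against 72 h. For this gene the drop to 72 h, between pools, was the larger part of the pattern.

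**Figure D2:**
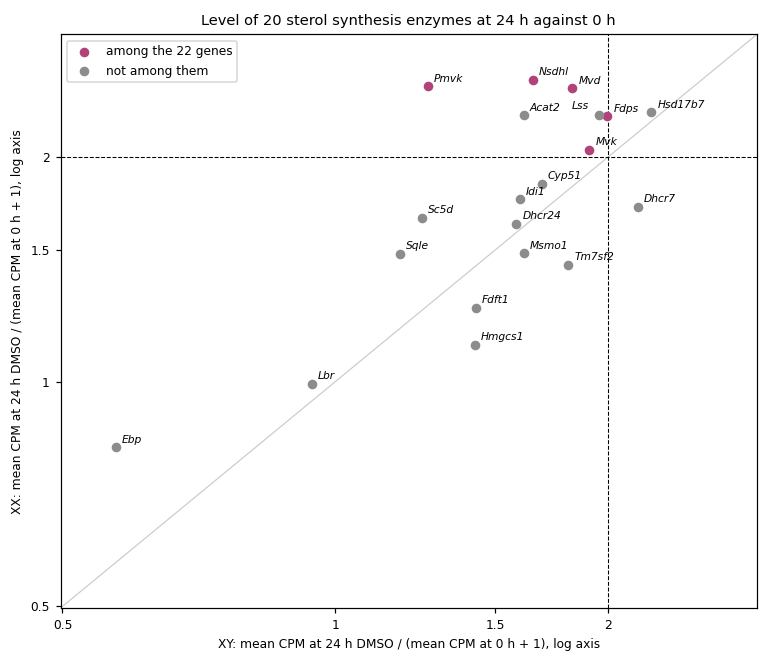
Ratio of the 24 h DMSO mean to the 0 h mean plus 1 for 20 sterol synthesis enzymes, in XX (y axis) and XY (x axis) germ cells, on log axes, with dashed lines at 2-fold and a grey line of equality. The 5 genes of the set lie above the horizontal line, from Pmvk at 1.264 in XY to Fdps at 1.996, against the vertical line.

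The promoters of the sterol genes are printed because these genes share a pathway that is regulated through its promoters. RefSeq windows from 250 bases before to 50 after a transcript start (build GRCm38.p6) were found for 15 of the 22 genes, including Mvk, Nsdhl, Mvd and Pmvk, whose windows follow, 5′ to 3′ along the gene. Capitals mark the letters CCAAT on the gene's strand, or ATTGG where the match is on the other strand. Pmvk has 2 windows, and the one shown holds the match, while the other (chr3:89459321-89459620) holds 0. Which of these starts the cells used was not tested.
Mvk (chr5:114444019-114444318, plus strand): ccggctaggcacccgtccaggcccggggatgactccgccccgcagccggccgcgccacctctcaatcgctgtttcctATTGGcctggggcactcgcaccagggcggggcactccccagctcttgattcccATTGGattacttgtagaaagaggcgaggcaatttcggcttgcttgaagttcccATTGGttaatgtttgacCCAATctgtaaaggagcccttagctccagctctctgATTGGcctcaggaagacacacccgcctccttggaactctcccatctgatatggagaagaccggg
Nsdhl (chrX:72918271-72918570, plus strand): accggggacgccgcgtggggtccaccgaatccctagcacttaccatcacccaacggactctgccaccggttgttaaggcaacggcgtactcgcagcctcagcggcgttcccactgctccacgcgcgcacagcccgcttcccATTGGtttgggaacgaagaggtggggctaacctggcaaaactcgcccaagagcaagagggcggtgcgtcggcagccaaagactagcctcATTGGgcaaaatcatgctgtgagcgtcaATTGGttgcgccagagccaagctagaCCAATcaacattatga
Mvd (chr8:122443373-122443672, minus strand): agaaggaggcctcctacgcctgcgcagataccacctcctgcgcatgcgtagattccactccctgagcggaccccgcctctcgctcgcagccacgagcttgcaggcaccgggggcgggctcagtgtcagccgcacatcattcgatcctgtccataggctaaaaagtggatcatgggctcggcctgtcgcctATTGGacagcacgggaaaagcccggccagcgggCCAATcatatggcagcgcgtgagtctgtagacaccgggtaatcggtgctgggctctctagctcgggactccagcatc
Pmvk (chr3:89454291-89454590, plus strand): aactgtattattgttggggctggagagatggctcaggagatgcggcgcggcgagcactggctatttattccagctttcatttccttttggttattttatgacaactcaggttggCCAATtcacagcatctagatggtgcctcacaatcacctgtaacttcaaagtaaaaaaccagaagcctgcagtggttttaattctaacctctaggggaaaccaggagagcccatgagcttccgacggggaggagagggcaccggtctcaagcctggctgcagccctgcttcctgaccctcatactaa
Mvk held 5 such matches, Nsdhl 4, Mvd 2 and Pmvk 1. CCAAT, searched on both strands, was found in all 4 of these genes, in 10 of the 15 genes matched and in 15 of 16 sterol enzymes with a window, against 41.1% of 27025 genes in the reference. The SREBP motif TCACNCCAC was found in 0 of the 15, in 1 of the 16 sterol enzymes (Hmgcs1) and in 1.44% of all genes. These letters say what is in the windows and nothing about which factor was bound. GGCGCC, searched for SMAD1/5, was found in 5 of the 15 (Raet1e, Fads2, Cdkn2d, Ccnjl and Tmem205) and in 13.4% of all genes. The E-box CACGTG was found in 1 (Zfp820, 8.09% of all genes), CNCCTCAG, searched for STRA8, in 1 (Fsd1, 9.12%), and TTTCCCGC and TTTGGCGC, searched for E2F, in 0 (1.24% and 0.585%). Of the motifs searched, CCAAT was the only one in the 4 genes printed, so no overlap arose.

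Fatty acid enzymes added a pair of genes. Fads2 (ENSMUSG00000024665, chr19:10038130-10079203), the desaturase that opens the synthesis of long polyunsaturated fatty acids, was among the most abundant of the set, with 32.3, 43.1, 43.4 and 51.3 CPM in XX 0 h, 117, 120, 121 and 169 CPM in XX 24 h, and 38.1, 41.3, 42.7 and 63.7 CPM in XX 72 h. Its XY 24 h DMSO libraries ran from 76.3 to 159 CPM and overlapped the XX ones. Acsl4, an X-linked acyl-CoA synthetase with a preference for arachidonate, had 3.62 to 5.50 CPM at 0 h, 17.6 to 29.1 CPM at 24 h and 8.77 to 10.3 CPM at 72 h in XX cells, so at 72 h it still lay above its 0 h range, and its XY 24 h DMSO libraries (4.89 to 13.5 CPM) stayed below.

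Among cell cycle genes, Ccnd1 (ENSMUSG00000070348, chr7:144483668-144493662), which encodes cyclin D1 and is a common WNT target, had the highest XX 24 h mean of the set. Its libraries stood at 44.0, 47.5, 57.4 and 60.7 CPM in XX 0 h, at 136, 148, 155 and 196 CPM in XX 24 h, and at 23.2, 23.7, 28.3 and 34.7 CPM in XX 72 h. In XY cells the gene was low at each time, with 14.3 to 18.0 CPM at 24 h with DMSO, and the XX 24 h mean was 9.50 times the XY 24 h mean plus 1. Cdkn2d (ENSMUSG00000096472, chr9:21199700-21202727), which encodes an INK4 inhibitor of the kinases that cyclin D1 activates, stood at 19.2, 23.0, 31.5 and 36.2 CPM, then at 61.8, 62.4, 62.6 and 81.5 CPM, then at 19.4, 21.0, 23.4 and 29.6 CPM at the same XX times. The rule required this course of both genes. In XY 24 h DMSO Cdkn2d had 18.1 to 22.1 CPM, below every XX 24 h library. Ccnjl (ENSMUSG00000044707, chr11:43419304-43477824), a cyclin J-like gene, had 7.61, 8.94, 14.8 and 17.6 CPM, then 24.4, 25.4, 26.7 and 31.3 CPM, then 4.38, 6.78, 6.84 and 10.2 CPM, with 17.7% of its XX 24 h counts expected from the libraries with the same index.

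Other genes encode proteins of the cell surface and of signalling. Jag2 (ENSMUSG00000002799, chr12:112871421-112893437), a Notch ligand, stood at 6.87, 13.4, 13.8 and 15.6 CPM in XX 0 h, at 24.7, 32.9, 34.6 and 41.1 CPM in XX 24 h, and at 9.18, 10.8, 13.7 and 15.7 CPM in XX 72 h. Its XY mean at 24 h was 0.586 times that at 0 h plus 1, the lowest such ratio in the set, and no XY 24 h DMSO library passed 6.11 CPM. Cspg5 (ENSMUSG00000032482, chr9:110072851-110091644), a chondroitin sulphate proteoglycan, stood at 6.51, 7.56, 7.61 and 9.47 CPM, then at 26.7, 28.1, 30.0 and 34.0 CPM, then at 7.14, 7.81, 8.14 and 16.3 CPM, with 4.89 to 8.73 CPM in XY 24 h DMSO. Raet1e (ENSMUSG00000053219, chr10:22034345-22250718), a ligand of the NKG2D receptor of natural killer cells, stood at 3.62, 4.98, 5.50 and 6.68 CPM, then at 15.1, 26.8, 26.9 and 29.6 CPM, then at 4.07, 5.10, 8.14 and 9.77 CPM. It belongs to a family of closely similar genes, so how its reads were shared with them is uncertain, and 14.8% of its XX 24 h counts were expected from the libraries with the same index.

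Arhgdig (ENSMUSG00000073433, chr17:26418153-26426760), an inhibitor of GDP dissociation from small GTPases, stood at 13.1, 14.9, 15.6 and 16.3 CPM in XX 0 h, at 30.0, 32.7, 34.5 and 38.8 CPM in XX 24 h, and at 10.8, 11.2, 12.52 and 15.6 CPM in XX 72 h. Enpp5 (ENSMUSG00000023960, chr17:44389675-44414680), of the ectonucleotide pyrophosphatase family, stood at 7.25, 7.56, 10.7 and 12.53 CPM, then at 20.9, 21.2, 24.7 and 30.9 CPM, then at 4.07, 7.33, 9.39 and 9.69 CPM. Both were higher in every XX 24 h library than in any XY 24 h library. Pnck, an X-linked calmodulin-dependent kinase, had 18.9 to 23.3 CPM in XX 24 h against 3.44 to 6.68 CPM at 0 h and 8.14 to 12.2 CPM at 72 h, and Entrep3 had 31.3 to 57.7 CPM against 13.1 to 23.4 CPM and 11.9 to 19 CPM. Tmem205 was nearest to the floor, with 18.0 to 21.3 CPM at 24 h against 7.97 to 9.62 CPM and 5.63 to 10.2 CPM. With Nsdhl, Acsl4 and Pnck, 3 of the 22 genes (13.64%) lay on the X chromosome, which held 3.827% of the 7840 genes that met the floor.

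A last group of genes was at a higher level in XY cells at 72 h than in XX cells at 24 h, which are in the other pool. Piwil4 (ENSMUSG00000036912, chr9:14607526-14652036) encodes MIWI2, a PIWI protein of the fetal male germ line that loads piRNAs and directs the silencing of transposons. It stood at 0.687, 1.45, 3.90 and 4.98 CPM in XX 0 h, at 14.8, 20.2, 23.3 and 32.5 CPM in XX 24 h, and at 0.510, 1.25, 1.47 and 3.39 CPM in XX 72 h, the largest ratio of the set (6.046). In XY cells it stood at 238, 274, 279 and 291 CPM by 72 h DMSO, and at 264, 327, 328 and 333 CPM with 72 h FGFRi, the libraries that share an index with XX 24 h. At the share seen for the Y-linked genes, 81.4% of the XX 24 h counts of Piwil4 would be counts of the partner libraries (54.3% to 113.2% by library), and its XX 24 h mean without them was 4.77 CPM, which does not meet the floor.

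Fsd1 (ENSMUSG00000011589, chr17:56293449-56304120), a microtubule-associated protein, stood at 11.1, 13.4, 19.2 and 20.3 CPM in XX 0 h, at 29.3, 31.1, 34.2 and 44.6 CPM in XX 24 h, and at 6.10, 7.81, 10.7 and 13.8 CPM in XX 72 h. Fam217b (ENSMUSG00000070476, chr2:178056306-178066221) stood at 12.4, 13.8, 17.4 and 17.8 CPM, then at 28.5, 35.0, 36.9 and 45.3 CPM, then at 9.77, 10.7, 13.6 and 13.8 CPM. Zfp820 had 20.5 to 39.3 CPM in XX 24 h against 5.50 to 21.4 CPM at 0 h and 8.13 to 9.39 CPM at 72 h. With Piwil4, Raet1e and Ccnjl these made 6 genes whose XY 72 h DMSO libraries all lay above their XX 24 h libraries, where 22.1% of the genes that met the floor did so, whereas in 11 genes all XY 72 h libraries lay below (34.2%) and in 5 the groups overlapped. These groups are in different pools, and the choice of genes for a high XX 24 h level favours the second count. XY 72 h means reached 184.6 ± 10.6 CPM for Fsd1, 102.2 ± 9.94 for Fam217b, 80.5 ± 8.80 for Ccnjl, 64.2 ± 8.35 for Raet1e and 52.0 ± 7.40 for Zfp820 (SD, n = 4).

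The share of XX 24 h counts expected from the partner libraries was 31.7% for Fsd1, 17.7% for Ccnjl, 17.3% for Fam217b, 14.8% for Raet1e and 12.4% for Zfp820, 8.42% for Enpp5, and at most 5.85% for the other 15 genes (0.326% for Ccnd1, 0.862% for Pmvk). With a share estimated separately for each of the 16 libraries that share an index and taken out, 14 of the 22 genes still met the rule, and Piwil4, Fsd1, Ccnjl, Fam217b, Zfp820, Fdps, Mvd and Mvk did not, while Rec8 and Sh3d19 were among those that came in. Of the 5 sterol genes this left Nsdhl and Pmvk, whereas Mvd and Mvk met the rule under both other removals below. Here the XX 24 h share was that of the Y-linked genes. For the other libraries it was the first percentile of the ratio to the partner, over genes with at least 500 partner counts. In the XX 24 h libraries that percentile was 5.748% to 9.931%, above the Y-linked share in each. With these shares out, the XY 24 h mean went from 39.5 to 46.3 CPM for Mvk and from 39.2 to 42.4 CPM for Mvd. With the share taken out of XX 24 h alone, an alternative added after seeing the data, 17 of the 22 genes met the rule, and Piwil4, Fsd1, Ccnjl, Fam217b and Zfp820 did not. Raet1e kept a mean of 22.3 CPM. Leaving out each of the 20 libraries behind the rule in turn, 20 to 26 genes met it, and 10 of the 22 did so every time (Raet1e, Ccnd1, Cspg5, Nsdhl, Jag2, Pmvk, Mvd, Cdkn2d, Enpp5 and Fam217b). Without XX 24 h replicate 6, whose partner library was the deepest, Piwil4, Fsd1, Zfp820, Entrep3 and Tmem205 no longer met it. With 1 common fraction taken out of all 16 libraries, also chosen after seeing the data, 16 of the 22 genes met the rule, Fdps being lost as well.

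**Figure D3:**
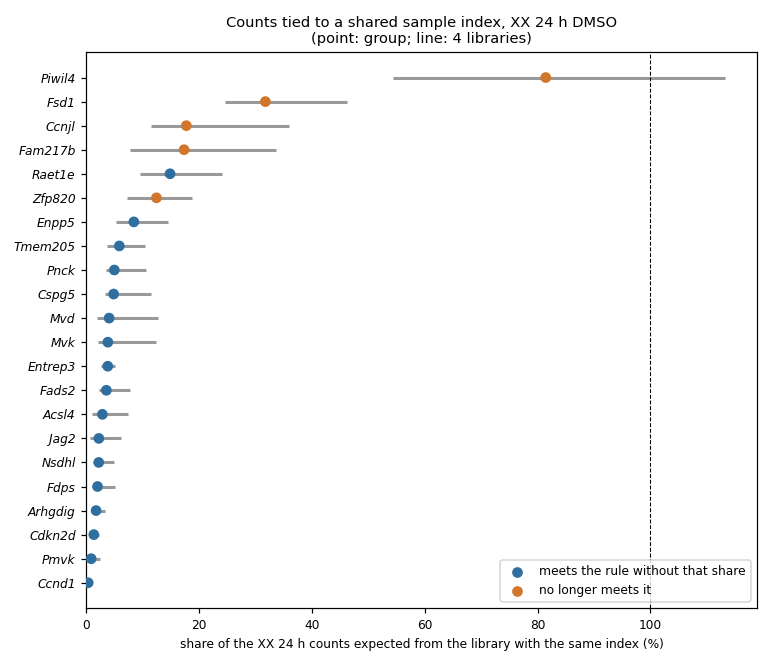
Share of each gene's XX 24 h DMSO counts (x axis, percent) that would come from the XY 72 h FGFRi library with the same sample index, at the ratio of the Y-linked genes; the point is the group and the line spans the 4 libraries. Piwil4 stands apart at 81.4%, and the 5 genes that no longer met the rule once it was taken out of XX 24 h alone are among the 6 with the largest shares.

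The members just inside and outside each limit show how sharp the set is. At the floor, Tmem205 (20.1 CPM) was in and Phgdh (19.02 CPM), Apba2 (18.0 CPM) and Ttll7 (17.5 CPM) were out. Against XX 0 h, Zfp820 (2.026 times) and Tmem205 (2.031 times) and Ccnjl (2.036 times) were in, and Acly (1.99 times), which makes cytosolic acetyl-CoA, and the pseudogene Idi1-ps1 (1.972 times) were out. Against XX 72 h, Pnck (2.008 times) and Acsl4 (2.044 times) were in and Lss, Tcn2 (1.825 times) and Micall1 (1.80 times) were out. On the XY ceiling, Sdc4 (2.016 times), Sh3d19 (2.157 times) and Hsd17b7 were out.

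Of 41 genes of meiotic entry, 39 were in the table, 28 met the floor and 21 of these had at least 2 times their XX 0 h level plus 1 at 24 h. Of the 21, 1 gene (4.76%), the meiotic cohesin gene Rec8, was also at least 2 times its XX 72 h level plus 1, against 9.61% of the 333 genes that met both earlier conditions. That count is too small to set the list apart. Rec8 went from 79.2 ± 6.96 to 333.7 ± 33.3 and then to 68.8 ± 25.2 CPM (SD, n = 4) in XX cells. It was kept out by its XY level, which was 9.70 CPM at 0 h and 34.9 CPM at 24 h, though it met the rule with the separate index shares taken out. Stra8, the gatekeeper of meiosis induced by retinoic acid, stood at 90.4 ± 14.2, 966.9 ± 243.5 and 672.2 ± 122.4 CPM (SD, n = 4), so it was still high at 72 h. The set held 0.281% of the 7840 genes that met the floor, and the other lists had few genes over it, so a count of 0 says little. Of the BMP targets 6 of 17 genes met the floor, of the retinoic acid targets 5 of 25, of the ERK targets 7 of 17, of the NODAL list 1 of 9, of the pluripotency list 14 of 15, of the imprinted genes 10 of 20 and of the stress and p53 targets 10 of 24, and 0 of each were in the set. Of the WNT targets 7 of 22 met the floor and Ccnd1 was in the set. By the same rule with the condition at 72 h turned round, 242 genes had an XX 24 h mean under 2 times the XX 72 h mean plus 1, among them genes that were far higher at 72 h.

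The inhibitor groups measured the same genes in XY libraries that the rule did not name, except the 24 h DMSO group. They may not be independent of the choice. If counts passed between libraries of one index, which was not tested, a gene high in the XY 72 h FGFRi libraries was favoured. Piwil4, Fsd1, Ccnjl, Fam217b and Zfp820 did not meet the rule once the expected share was taken out of XX 24 h. Each count of calls is therefore also given for the 17 genes that did, a step added after seeing the data. At 72 h all 3 treatments were in one pool. With MEKi against DMSO, 3 of the 22 genes were higher, where 4.01% of the 15252 genes tested were, and 5 were lower, where 5.11% were (limma, fold change tested against 1.5, false discovery rate (FDR) under 0.05). Of the 17 genes, 3 were higher and 1 was lower (5.88%), the latter near the share over all genes. The median log2 fold change was 0.29 over the 22 genes, 0.56 over the 17 and 0.01 over all genes tested. All 22 genes passed the filter on low counts, and all 22 had at least 10 counts in 4 or more libraries outside XX 24 h DMSO.

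The 3 genes higher with MEKi than with DMSO at 72 h were Cdkn2d, Arhgdig and Ccnd1. Cdkn2d stood at 9.09, 10.8, 11.4 and 15.0 CPM in XY 72 h DMSO and at 35.2, 35.7, 38.7 and 39.7 CPM with MEKi, which was 1.59 ± 0.21 higher on the log2 scale (SE, FDR = 0.0002467). Arhgdig stood at 8.07, 10.8, 11.4 and 16.4 CPM with DMSO and at 30.2, 30.4, 36.6 and 38.0 CPM with MEKi, a log2 fold change of 1.504 ± 0.24 (SE, FDR = 0.002948). The MEKi libraries of both genes lay above all DMSO libraries. Ccnd1 stood at 6.49, 8.20, 12.8 and 12.8 CPM with DMSO and at 23.9, 29.9, 31.0 and 39.2 CPM with MEKi, a log2 fold change of 1.49 ± 0.26 (SE, FDR = 0.008778), though without DMSO replicate 4 its FDR was 0.1096. With MEKi the Arhgdig libraries lay within the range of the XX 24 h libraries, while Ccnd1 and Cdkn2d stayed below every XX 24 h library.

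The 5 genes lower with MEKi than with DMSO at 72 h were Piwil4, Raet1e, Fsd1, Ccnjl and Fam217b. All of them had XY 72 h DMSO libraries that lay above their XX 24 h libraries. With MEKi their mean was higher at 72 h than at 24 h, in another pool. In Piwil4 it went from 3.68 to 68.4 CPM, in Raet1e from 9.85 to 27.9 and in Fsd1 from 20.9 to 80.9. In Ccnjl it went from 22.3 to 37.1 CPM and in Fam217b from 18.0 to 47.5. Raet1e alone of the 5 was among the 17 genes. The other 4 did not meet the rule once the expected share was taken out. Piwil4 stood at 50.5, 67.5, 73.3 and 82.2 CPM with MEKi, a log2 fold change of -2.03 ± 0.12 (SE, FDR = 1.344e-13) against DMSO. Fsd1 stood at 171, 183, 189 and 196 CPM with DMSO and at 66.5, 83.0, 84.7 and 89.5 CPM with MEKi. Raet1e stood at 53.8, 61.0, 70.8 and 71.1 CPM with DMSO and at 19.1, 27.0, 30.5 and 35.2 CPM with MEKi. The groups did not overlap for either gene, with log2 fold changes of -1.27 for both (FDR = 2.485e-05 for Fsd1, 0.0006282 for Raet1e). Ccnjl stood at 72.5, 74.0, 84.5 and 90.9 CPM with DMSO and at 29.9, 38.6, 39.8 and 40.1 CPM with MEKi. Fam217b stood at 90.8, 97.1, 110 and 111 CPM with DMSO and at 38.6, 46.6, 50.3 and 54.5 CPM with MEKi. Both had log2 fold changes of -1.20 (FDR = 0.0002303 for Ccnjl, 7.031e-05 for Fam217b), and in all 5 genes the highest MEKi library was below the lowest DMSO library.

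Without the filter on low counts Raet1e (FDR = 0.1024) and Ccnjl (FDR = 0.0603) no longer passed. The other 14 genes did not pass. The sterol genes with MEKi at 72 h had log2 fold changes of 1.07 ± 0.32 for Pmvk, 0.83 ± 0.18 for Fdps, 0.32 ± 0.17 for Nsdhl, -0.06 ± 0.20 for Mvk and -0.17 ± 0.16 for Mvd (SE), with FDR = 0.383 for Pmvk and 0.4651 for Fdps. Among the others, Fads2 had 0.87 ± 0.15 (SE, FDR = 0.2023), Cspg5 0.97 ± 0.19 (SE, FDR = 0.1828) and Enpp5 -0.99 ± 0.20 (SE, FDR = 0.1665).

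**Figure D4:**
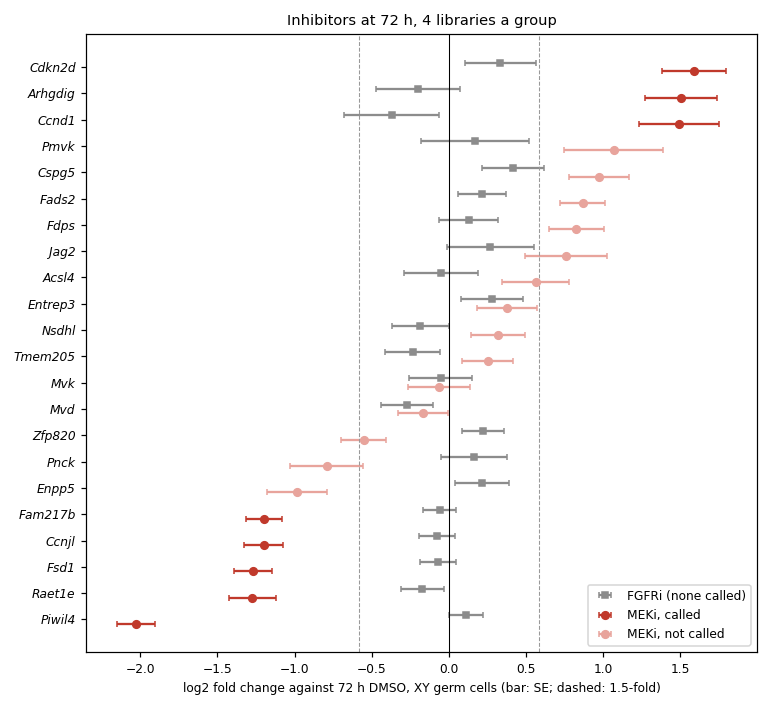
Log2 fold change against 72 h DMSO (x axis) in XY germ cells for the 22 genes, with FGFRi (squares) and MEKi (circles), bars giving the SE from 4 libraries a group and dashed lines a 1.5-fold change. With MEKi 3 genes at the top (Cdkn2d, Arhgdig, Ccnd1) and 5 at the bottom (Fam217b, Ccnjl, Fsd1, Raet1e, Piwil4) passed the test, and with FGFRi 0 did.

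FGFRi at 72 h gave no call among the 22 genes by limma, with 0 genes at an unadjusted p under 0.05 as well, in a comparison where 0.00656% of the genes tested were called. Setting the inhibitors against each other at 72 h, the same 3 genes were higher with MEKi (5.71% of genes tested) and 6 were lower (6.98%), the 5 above and Enpp5, which stood at 30.7, 31.9, 40.0 and 41.1 CPM with FGFRi and at 12.1, 13.9, 15.9 and 17.3 CPM with MEKi. Of the 17 genes 3 were higher and 2 lower (Enpp5 and Raet1e). Both comparisons of MEKi use the same MEKi libraries. Enpp5 and Raet1e no longer passed here without XY 72 h MEKi replicate 3, nor without the filter on low counts (FDR up to 0.09177 and 0.1226).

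FGFRi cultures also gave a time course within one pool. Between 24 h and 72 h with FGFRi, 9 of the 22 genes rose (19.2% of genes tested did) and 3 fell (14.2%). The 72 h libraries of this comparison are the ones that share an index with XX 24 h. Of the 17 genes that met the rule without the expected share 4 rose (23.5%) and 3 fell (17.6%), both near the share over all genes. Those that rose were Piwil4, Raet1e, Cspg5, Fsd1, Ccnjl, Fam217b, Enpp5, Pnck and Zfp820, from a log2 fold change of 1.31 ± 0.19 (SE, FDR = 0.0007971) for Zfp820 to 4.50 ± 0.27 (SE, FDR = 1.209e-17) for Piwil4. Those that fell were Pmvk at -1.89 ± 0.26 (SE, FDR = 2.912e-05), Cdkn2d at -1.07 ± 0.19 (SE, FDR = 0.02046) and Fdps at -1.01 ± 0.17 (SE, FDR = 0.02312). Pmvk stood at 18.2, 22.8, 23.6 and 41.4 CPM at 24 h and at 5.21, 9.07, 9.28 and 10.4 CPM at 72 h with FGFRi. The calls of Cdkn2d and Fdps were the weak ones: Cdkn2d was lost without XY 24 h FGFRi replicate 1 or 4 or XY 72 h FGFRi replicate 4, and Fdps without XY 24 h FGFRi replicate 3 or 5 or XY 72 h FGFRi replicate 2 or 4, with FDR up to 0.1406 and 0.206 over the alternatives.

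At 24 h, where the XY DMSO libraries had entered the choice, limma called 0 of the 22 genes with MEKi (0.164% of genes tested), and 2 had an unadjusted p under 0.05. Pmvk stood at 13.2, 24.3, 24.5 and 25.8 CPM with DMSO and at 40.2, 44.2, 45.5 and 46.8 CPM with MEKi, groups that did not overlap and that differed by 0.99 ± 0.19 on the log2 scale (SE, FDR = 1). Piwil4 stood at 9.16, 10.3, 11.5 and 31.3 CPM with DMSO and at 1.47, 3.09, 4.64 and 5.53 CPM with MEKi (log2 fold change -1.66 ± 0.44, SE, FDR = 0.9091). The 24 h DMSO libraries share indices with the 72 h MEKi libraries, in which Piwil4 was high, and the 24 h MEKi libraries share none. With FGFRi at 24 h limma again called 0 genes (0.262% of genes tested), with 0 at an unadjusted p under 0.05, and there the treatment and the pool cannot be told apart.

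The 72 h difference with MEKi minus the 24 h difference, each taken within a pool, is given as a description. It uses the XY 24 h DMSO libraries, whose level the choice of genes had capped, so that a lower DMSO level at 24 h was favoured. By limma it passed the threshold in the higher direction for 1 of the 22 genes (1.21% of genes tested) and in the lower for 2 (0.675%). Of the 17 genes it passed for 1 in the higher and 1 in the lower direction, and nothing is read from these counts. The value was -2.32 ± 0.40 for Raet1e, -1.71 ± 0.24 for Ccnjl and 1.64 ± 0.32 for Arhgdig (log2, SE). Raet1e at 24 h had 3.85 to 6.85 CPM with DMSO and 6.85 to 14.4 CPM with MEKi. Ccnjl had 12.50 to 21.5 CPM with DMSO and 18.1 to 29.8 CPM with MEKi. Arhgdig overlapped between treatments at 24 h, with 13.7 to 22.5 CPM in DMSO and 14.9 to 23.1 CPM in MEKi. Raet1e and Ccnjl no longer passed without the filter on low counts, nor did Arhgdig in 12 of the 16 fits that left out 1 library.

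These values also moved when counts tied to the shared index were taken out, since the 24 h DMSO libraries have partners and the 24 h MEKi libraries have none. With the separate index shares taken out, which left some XY 24 h DMSO values at 0, the difference was -6.55 for Raet1e, -2.58 for Ccnjl and 1.26 for Arhgdig. That of Cspg5 turned from 1.24 to -3.08, and the 24 h value of Raet1e with MEKi went from 1.04 to 5.28 (log2). With the common fraction the differences were -2.77, -1.82 and 1.57 for Raet1e, Ccnjl and Arhgdig.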

How the data were processed

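Sorted germ cells were sequenced from poly(A)-primed libraries with unique molecular identifiers, 4 libraries in each of 10 groups, in 2 pools of 20. The authors aligned the reads to GRCm39 with Rsubread, assigned them to GENCODE genes and collapsed them by identifier with scPipe, and deposited 1 table of whole-number counts per gene for the 40 libraries, without normalization. Each deposited count comes from the 3′ end of a transcript, so levels were not divided by length. The submitters' processing notes also name limma and edgeR.

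The genes were chosen from CPM group means by the stated rule. The set, the gene lists and the tests were chosen with earlier results of these data known. Positions of genes come from the GENCODE annotation of GRCm39, matched by identifier for 40391 of 42422 genes, and promoter windows from RefSeq on GRCm38.p6.

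Differences were tested with limma 3.58.1 (R 4.3.3): voom with sample weights, 1 mean per group over all 40 libraries, TMM scaling by edgeR 4.0.16, genes kept by filterByExpr (15252 genes, 99.2% of counts), treat against a fold of 1.5 and Benjamini-Hochberg FDR under 0.05 over all genes tested. The fit was tested on simulated counts. The edgeR and DESeq2 1.42.0 tests, RLE scaling, no filter, no sample weights, a test without the fold limit, a replicate block, removal of counts tied to shared indices and leaving out each library were alternatives. Library pairs within a group differed beyond counting noise (chi-square per degree of freedom at least 2.177), so none was merged. Nothing used here ties a library to an embryo, and p-values measure the spread between pooled samples. Intervals of counting error are not given, and 1 count in the median library was 0.468 CPM.

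By the naming rule, every library is given for the 12 genes with the largest ratio, the 5 with the highest XX 24 h mean, genes of the BMP, retinoic acid, meiotic entry and WNT lists, and genes called with MEKi at 72 h. Other genes are given by range. Some items are not reported here.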

Additional observations from a re-analysis of the deposited data

Results flagged for a closer look

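Of the 220 combinations of the 22 genes with a group of 4 libraries, 17 had 1 library far from the other 3 (Dixon's test at the 95% level), where chance flags about 1 in 20. The XX 24 h group held 2 of them: Fads2 at 168.9 CPM in replicate 9 against 117.4 to 121.3 CPM in the others, and Cdkn2d at 81.5 CPM in replicate 6 against 61.78 to 62.56 CPM. In the other XX groups, Pmvk stood at 27.84 CPM in XX 0 h replicate 5 against 20.62 to 21.82 CPM, and Cspg5 at 16.27 CPM in XX 72 h replicate 7 against 7.139 to 8.14 CPM.

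In XY 24 h DMSO, replicate 3 was high for Piwil4 (31.3 CPM against 9.16 to 11.53 CPM) and Pnck (11.74 CPM against 0.9612 to 2.375 CPM) and low for Pmvk (13.2 CPM against 24.33 to 25.78 CPM), and replicate 4 was low for Enpp5 (2.714 CPM against 7.669 to 8.651 CPM) and Zfp820 (17.64 CPM against 24.99 to 25.92 CPM). Cdkn2d stood at 20.54 CPM in XY 0 h replicate 3 against 14.42 to 15.27 CPM.

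In the inhibitor groups, Cspg5 stood at 7.714 CPM in XY 24 h MEKi replicate 6 against 5.104 to 5.385 CPM, Fam217b at 13.61 CPM in replicate 1 of that group against 19.09 to 19.58 CPM, and Zfp820 at 25.38 CPM in XY 24 h FGFRi replicate 5 against 20.52 to 21.35 CPM. At 72 h, Piwil4 stood at 263.5 CPM in FGFRi replicate 4 against 327.2 to 333.2 CPM, Arhgdig at 6.186 CPM in FGFRi replicate 5 against 11.05 to 11.79 CPM, Jag2 at 14.95 CPM in MEKi replicate 2 against 18.44 to 19.08 CPM, and Ccnjl at 29.89 CPM in MEKi replicate 2 against 38.62 to 40.13 CPM.

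Subtracting the 24 h from the 72 h response to MEKi left a difference that passed limma's threshold in 3 genes, of 1.644 for Arhgdig, -1.709 for Ccnjl and -2.316 for Raet1e on the log2 scale. The XY 24 h DMSO libraries in this difference had entered the choice of genes, so these values are a description.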

How the results depend on the processing

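The set held 18 genes with TMM-scaled totals (Acsl4, Pnck, Tmem205 and Zfp820 lost), 17 with the planned index fractions taken out (14 of the 22 kept), 19 with a common fraction and 20 with XX 24 h alone corrected, and 26 with 1 added after doubling, the last 3 chosen after seeing the data. Leaving out 1 library gave 20 to 26. With a fold limit on the estimate in place of the test, limma called 15 genes for MEKi at 72 h, 15 for MEKi against FGFRi, 4 and 1 for MEKi and FGFRi at 24 h and 9 for the difference of MEKi effects. With the planned index fractions taken out, which left some XY 24 h DMSO values at 0, it called 2, 4 and 6 in the last 3. There the difference of MEKi effects for Cspg5 turned from 1.236 to -3.083. By edgeR, 1 gene (Piwil4) was called for MEKi at 24 h. Without the filter on low counts 1 gene was called for the difference of MEKi effects. The cause was not tested. Leaving out 1 library gave 7 to 8 calls for MEKi at 72 h, 7 to 9 against FGFRi, 10 to 13 for FGFRi between 24 h and 72 h, 0 for both inhibitors at 24 h and for FGFRi at 72 h, and 2 to 3 for the difference. Over single genes called, 527 of 568 refits kept the call, 41 lost it and 0 reversed.

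Replicate numbers are shared between groups, but the deviations of same-numbered libraries did not correlate (62 pairs, r from -0.187 to 0.195, median -0.0089, against a median of 0.0076 for 322 other pairs), so the numbers do not pair the libraries. With replicate number as a block the calls numbered 8 for MEKi at 72 h, 9 against FGFRi and 2 for the difference of MEKi effects (Arhgdig lost, FDR = 0.06272), at an estimated correlation of -0.037 within blocks. RLE scaling shifted the median of all genes by -0.0814 to 0.0757 (log2) from TMM.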
